A study of Mus musculus with 12 samples.

Results

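The genes of pre-mRNA splicing and of the RNA helicases were examined in the blood of aged mice given *Akkermansia muciniphila* (Akk) and of control mice (Ctrl). Members were taken from the blood table by gene symbol, as the Srsf, Srrm, Sf3a, Sf3b, Sf1, Snrp, Snrnp, Hnrnp, Ddx, Dhx, Prpf, Rbm, U2af, Cpsf, Cstf, Celf and Mbnl families, without Ddx58 and Dhx58. This gave 111 of the 8003 genes in the table, all of them mRNA genes, against 190 protein-coding RefSeq genes whose symbol follows the same pattern. The remaining genes of these families were not analysed here. The table holds the genes that the study called changed between these same libraries, by a 1.5-fold change and an FDR threshold of 0.05. The Akk mean was lower by at least 1.5 times for 99.5% of them, so that the lower mean of the members comes with the table and is no evidence about splicing.

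The mice were C57BL/6, aged 15 months, and the blood of 3 mice in each group gave 1 RNA library per animal. The treatment label of the Akk mice names a membrane protein of *A. muciniphila* and gives 8 weeks, a protocol field attached to every sample gives 6 weeks, and the Ctrl mice are labelled normal. The study's methods instead describe antibiotic-pretreated mice gavaged with the bacterium or with vehicle, and say that the RNA came from animals in which colonization by the bacterium had failed. Values are FPKM, which scale fragments by transcript length and by the size of the library, so that levels can be compared between genes.

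Introns are removed from pre-mRNA by the spliceosome, a machine of small nuclear RNAs and their proteins (snRNPs) that is rebuilt on each intron. SR proteins mostly promote the use of nearby splice sites, and hnRNP proteins bind the transcript and often oppose them. RNA helicases of the DEAD and DEAH families, named after a conserved run of amino acids, remodel RNA and RNA-protein complexes in splicing, export, translation, decay and ribosome assembly, and some sense or restrict viral RNA. Cleavage and polyadenylation factors cut the transcript and define its end, whereas the Mbnl and Celf proteins set splicing programmes that differ between cell types. Blood leukocytes express most of these genes, and platelets and young red cells carry some of their mRNAs.

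The Ctrl 1 library stood apart from the other 5. It exceeded the other 5 in each of the 111 members, as it did for 97.9% of the table. The FPKM of the table summed to 70846 in Ctrl 1 and to between 10311 and 19551 in the others. All 10 neutrophil markers, 7 of 7 platelet markers, 7 of 7 NK cell markers and 7 of 8 monocyte markers were in the table and above 0 in every library, with 5 of 9 T cell and 2 of 8 B cell markers. Red cell and mitochondrial markers were not analysed here. The number of reads is unknown.

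Summed over the members, FPKM came to 470.4, 122.1 and 78.7 for Ctrl 1, 2 and 3, and to 125.7, 66.4 and 66.2 for Akk 1, 2 and 3. Akk 1 thus lay at the level of Ctrl 2 and above Ctrl 3, and the groups overlapped. On the log2(FPKM + 0.1) scale, the median level of the members was 0.96, -0.71 and -1.22 in Ctrl 1, 2 and 3 and -0.67, -1.47 and -1.47 in Akk 1, 2 and 3. In every library this median was above that of the whole table, by between 0.31 and 0.66.

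**Figure D1:**
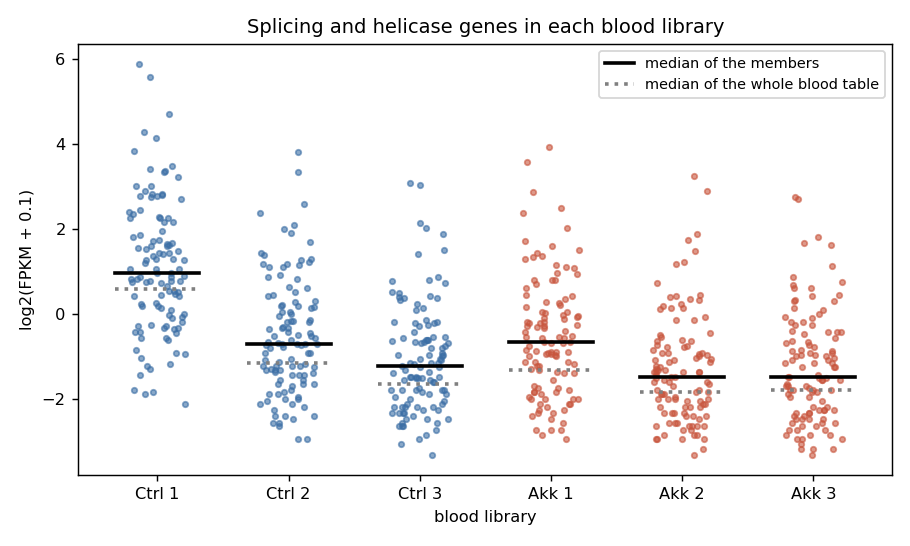
Level of the 111 members in each blood library, as log2(FPKM + 0.1), 1 point per gene. Black bars mark the median of the members and dotted bars that of the whole table; Ctrl 1 is highest, with a median of 0.96, and Akk 1, at -0.67, lies beside Ctrl 2, at -0.71.

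Most members were expressed at a low level. The mean over the 6 libraries ran from 0.04 to 18.2 FPKM with a median of 0.627, and 39 of 111 members (35.1%) reached 1 FPKM, against 29.6% of the table. The 2 most abundant genes made up 21.9% of the summed mean FPKM of all members and the first 10 made up 47.0%. Mbnl1 (NCBI gene 56758; GRCm38 chr3:60472559-60629750), a regulator of alternative splicing known from myotonic dystrophy, was the highest. It was at 59.07, 14.00 and 8.29 FPKM across Ctrl 1 to 3 and 11.73, 9.34 and 6.67 FPKM across Akk 1 to 3. Ddx5 (NCBI gene 13207; chr11:106780355-106789185), a DEAD-box helicase active in transcription and splicing, followed at 47.43, 10.08 and 8.08 FPKM across Ctrl 1 to 3 and 15.04, 7.27 and 6.43 FPKM across Akk 1 to 3. In both genes the groups overlapped, since Akk 1 and Akk 2 exceeded Ctrl 3 in Mbnl1 and Akk 1 exceeded Ctrl 2 and Ctrl 3 in Ddx5. Ddx5, Hnrnpf and Rbm42 have a near-identical transcript elsewhere in the annotation (identity of 95% over 50% of the length), and their values are uncertain to the extent that reads were shared. The next in order were Hnrnpf, which binds runs of G, at a mean of 8.26 FPKM, and Hnrnpk, which binds runs of C, at 6.89 FPKM. The SD between the Ctrl mice was 27.8 FPKM for Mbnl1 and 22.2 FPKM for Ddx5. It does not measure how certain this order is, since the genes share their libraries. Mbnl1 was above Ddx5 except in Akk 1, and Ddx5 was above Hnrnpf in every library. Hnrnpk exceeded Hnrnpf in Ctrl 3, Akk 2 and Akk 3.

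To ask whether the treated mice differed, the groups were compared with limma on log2(FPKM + 0.1), with Benjamini-Hochberg adjustment over the 8003 genes and with the study's thresholds, a 1.5-fold change at an adjusted p of 0.05. No member passed: 0 of 111 were lower and 0 were higher, against 0% of the table in each direction. At an unadjusted p under 0.05, limma gave 0 members, against 3.40% of the table in the lower direction. The smallest adjusted p of a member was 0.487. All 111 members had a negative log2 fold change, with a median of -0.83 for the members and -0.87 for the table. With each library centred on the median of the table, the median of the table moved to 0.045 and that of the members to 0.089, and the split became 44 lower and 67 higher (60.4%, against 54.9% of the table). In that setting 1 member, Ddx28, was lower at an unadjusted p under 0.05, against 3.22% of the table, and 0 were higher, against 0.625%. Quantile normalization gave 33 lower (29.7%, against 44.6% of the table) and 78 higher. Leaving out Ctrl 1 gave 98 lower (88.3%, against 81.6% of the table) and 13 higher, with a median of -0.21 for the members and -0.24 for the table. The members were less dispersed than the table, with an interquartile range of the log2 fold change of 0.31 against 0.45. Less RNA of a gene in blood cannot be told apart from fewer of the cells that carry it.

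Every Akk value lay below every Ctrl value for 14 members, 12.6% of the 111, against 15.4% of the table, a share near the background. For each of these 14 the two-sided exact permutation p was 0.1, the smallest that 3 mice against 3 can give. The 14 were Cstf2t, Ddx19a, Ddx19b, Ddx28, Ddx39, Ddx49, Dhx8, Dhx37, Hnrnpm, Mbnl2, Rbm4, Rbm14, Rbm45 and Snrnp200, of which those other than Cstf2t, Ddx28 and Mbnl2 are named after their values were seen. Since Ctrl 1 was the highest library for all members, the separation rested on Ctrl 2 and Ctrl 3. The count without Ctrl 1 was therefore bound to be 14 again (12.6%, against 15.6% of the table). Leaving out a library can only keep or raise this count. It was 64 without Akk 1 (57.7%, against 41.8%) and 56 without Ctrl 3 (50.5%, against 57.8%). By mean FPKM without Ctrl 1, 91 members were lower in the Akk group (82.0%, against 80.8% of the table) and 19 were higher (17.1%, against 18.3%). A difference of at least 1.5 times in these means was met by 24 lower members (21.6%) against 33.6% of the table, and by 1 higher member (0.901%), the helicase gene Ddx11, against 3.61%. Ddx11 was at 0.03 and 0.02 FPKM in Ctrl 2 and 3 and 0.05, 0.06 and 0.03 FPKM across Akk 1 to 3. These values lie within a few steps of the rounding to 2 decimals. After centring, every Akk library was below every Ctrl library for Cstf2t, Ddx28, Dhx8 and Snrnp200, which is 4 members (3.60%) against 4.44% of the table, and with Ctrl 1 also left out the count was 9 (8.11%) against 9.10%. With all libraries, every Akk library was above every Ctrl library after centring for Dhx34, Snrpb2 and Srrm2, which is 3 members (2.70%) against 4.01%. Dhx34 and Snrpb2 are named after their values were seen.

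**Figure D2:**
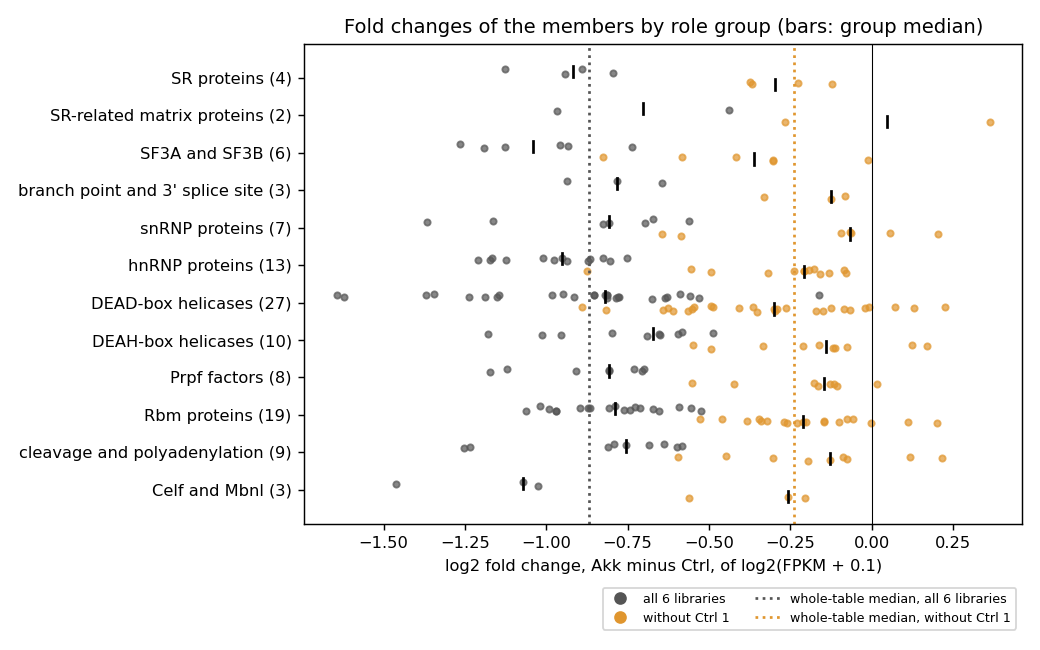
Log2 fold change (Akk minus Ctrl) of each member by role group, with the number of members in brackets. Grey points use all 6 libraries and orange points leave out Ctrl 1; bars are group medians and dotted lines the table medians of -0.87 and -0.24, around which the groups lie in both settings.

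The core of the spliceosome was represented by 7 snRNP proteins, 6 subunits of SF3A and SF3B, which hold U2 at the branch point, and 3 factors of the 3′ splice site. Their median log2 fold changes were -0.81, -1.04 and -0.78, and 0 of these 16 genes passed the thresholds. Snrnp200 (NCBI gene 320632; chr2:127208386-127240453), the helicase that unwinds the U4 and U6 RNAs when the spliceosome is activated, had the lowest fold change of the snRNP proteins. It was at 2.59, 0.51 and 0.49 FPKM across Ctrl 1 to 3 and 0.42, 0.25 and 0.21 FPKM across Akk 1 to 3, without overlap, with a log2 fold change of -1.37 ± 0.92 (SE; limma, adjusted p = 0.487). Snrpb, a protein of the Sm ring, was the most abundant of the group at 3.84 ± 3.61 FPKM (SD, n = 3) in Ctrl and 1.67 ± 0.797 FPKM (SD, n = 3) in Akk. Snrnp70, which carries U1 to the 5′ splice site, was at 5.36, 1.78 and 0.59 FPKM across Ctrl 1 to 3 and 1.64, 1.00 and 0.77 FPKM across Akk 1 to 3, and these ranges overlapped. Without Ctrl 1 its log2 fold change turned from -0.70 to 0.058. Among the U2 subunits, Sf3b2 was the most abundant at a mean of 3.21 FPKM. Sf3b5, a small subunit of SF3B, was at 3.02, 1.68 and 0.78 FPKM across Ctrl 1 to 3 and 0.78, 0.30 and 0.90 FPKM across Akk 1 to 3. U2af2, which reads the polypyrimidine tract, was at 3.23 ± 2.83 FPKM (SD, n = 3) in Ctrl and 1.49 ± 0.557 FPKM (SD, n = 3) in Akk.

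Among the regulators of splice site choice, the 13 hnRNP proteins had a median log2 fold change of -0.95 and the 4 SR proteins one of -0.92, with 0 past the thresholds. Hnrnpm (NCBI gene 76936; chr17:33646233-33685458), a regulator of alternative exons, was the hnRNP whose groups did not overlap. It was at 6.93, 3.92 and 3.57 FPKM across Ctrl 1 to 3 and 2.94, 2.14 and 1.25 FPKM across Akk 1 to 3, so that every Akk mouse was below every Ctrl mouse. Its log2 fold change was -1.17 ± 0.93 (SE; limma, adjusted p = 0.487) and -0.87 without Ctrl 1. Srsf4 was the most abundant of the SR proteins, at 3.26, 1.00 and 0.55 FPKM across Ctrl 1 to 3 and 0.89, 0.43 and 0.62 FPKM across Akk 1 to 3. Srrm2 (NCBI gene 75956; chr17:23790527-23824741), a large serine- and arginine-rich protein of nuclear speckles, had the highest centred log2 fold change among members with a mean of at least 1 FPKM. It was at 7.94, 1.73 and 1.16 FPKM across Ctrl 1 to 3 and 2.59, 1.55 and 1.58 FPKM across Akk 1 to 3, and Ctrl 2 and Ctrl 3 lay within or below the Akk range. The log2 fold change of Srrm2 was -0.44 ± 0.93 (SE; limma, adjusted p = 0.644), turning to 0.36 without Ctrl 1 and to 0.48 with centring. The group of Celf2, Mbnl1 and Mbnl2 had the lowest median of the 12 role groups, -1.07. This rank did not hold without Ctrl 1, where its median was -0.26 and that of SF3A and SF3B was -0.36. Mbnl2 (NCBI gene 105559; chr14:120275652-120431698) was at 11.13, 2.04 and 1.30 FPKM across Ctrl 1 to 3 and 1.26, 1.15 and 0.85 FPKM across Akk 1 to 3. These groups did not overlap, although Akk 1 came close to Ctrl 3.

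**Figure D3:**
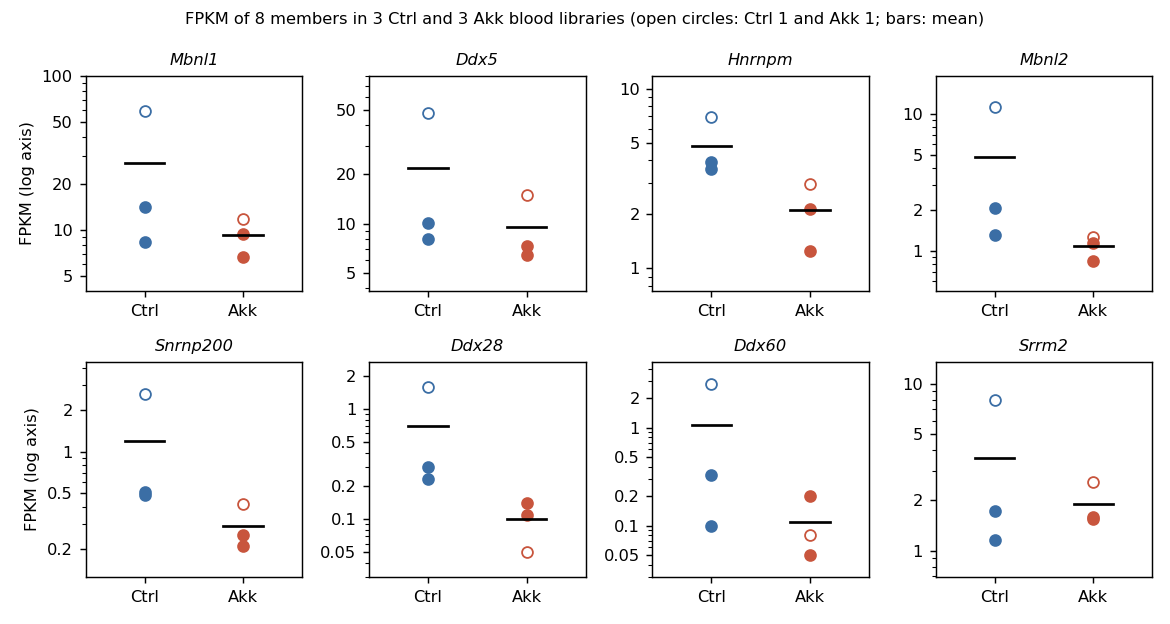
FPKM on a log axis for 8 members in the 3 Ctrl (blue) and 3 Akk (red) mice, with bars at the group means and open circles for Ctrl 1 and Akk 1. Mbnl2, Snrnp200, Ddx28 and Hnrnpm separate the groups, whereas Mbnl1, Ddx5, Ddx60 and Srrm2 overlap.

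Helicases with a Ddx or Dhx symbol made up 37 of the members. The 27 Ddx and 10 Dhx genes are called the DEAD and DEAH families here by symbol alone. Their median log2 fold changes were -0.82 and -0.67. The DEAD family was the most dispersed of the role groups, from -1.64 to -0.16, the latter for the scarce Ddx11. By interquartile range it was the widest too, at 0.42. Its lowest member was Ddx60 (NCBI gene 234311; chr8:61928073-62037704), an interferon-induced helicase with a role against viruses. Ddx60 was at 2.77, 0.33 and 0.10 FPKM across Ctrl 1 to 3 and 0.08, 0.05 and 0.20 FPKM across Akk 1 to 3. The Akk 3 value was above Ctrl 3, and the high Ctrl mean came from Ctrl 1. The log2 fold change was -1.64 ± 0.85 (SE; limma, adjusted p = 0.487) and -0.55 without Ctrl 1. Ddx28 (NCBI gene 71986; chr8:106009616-106011486), a helicase of mitochondrial ribosome assembly, was at 1.57, 0.30 and 0.23 FPKM across Ctrl 1 to 3 and 0.05, 0.14 and 0.11 FPKM across Akk 1 to 3. These values did not overlap, and the log2 fold change was -1.62 ± 0.84 (SE; limma, adjusted p = 0.487), or -0.89 without Ctrl 1.

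Ddx47, Ddx24 and Ddx56, helicases of the nucleolus and ribosome assembly, had log2 fold changes of -1.37, -1.24 and -1.34. Ddx56 was at 0.85, 0.32 and 0.14 FPKM across Ctrl 1 to 3 and 0.18, 0.09 and 0.01 FPKM across Akk 1 to 3, with the Akk 1 value above Ctrl 3. Ddx6, which acts in mRNA decapping and storage, was the second most abundant helicase. It was at 10.22, 1.25 and 1.21 FPKM across Ctrl 1 to 3 and 2.03, 1.22 and 1.00 FPKM across Akk 1 to 3, and without Ctrl 1 its log2 fold change turned from -0.85 to 0.13. Ddx25, a helicase known from the testis, was at 0.13, 0.08 and 0.00 FPKM across Ctrl 1 to 3 and 0.03, 0.00 and 0.00 FPKM across Akk 1 to 3, values within a few steps of the 2 decimals to which the table is rounded. Ddx19a and Ddx19b, neighbouring genes for helicases of mRNA export, both separated the groups, the former at 1.77, 0.64 and 0.43 FPKM against 0.33, 0.27 and 0.32 FPKM, the latter at no more than 0.17 FPKM.

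In the DEAH family, Dhx38 and Dhx8 act in the second step of splicing and in the release of the mRNA. Dhx38 was at 3.20, 0.60 and 0.35 FPKM across Ctrl 1 to 3 and 0.49, 0.29 and 0.45 FPKM across Akk 1 to 3, with overlap. Dhx8 was at 1.97, 0.53 and 0.40 FPKM across Ctrl 1 to 3 and 0.36, 0.26 and 0.24 FPKM across Akk 1 to 3, with none. Dhx40 was the most abundant DEAH helicase at a mean of 1.01 FPKM, and its log2 fold change of -0.60 became 0.17 without Ctrl 1. Dhx36, which opens G-quadruplexes, was at 0.257 ± 0.264 FPKM (SD, n = 3) in Ctrl and 0.083 ± 0.025 FPKM (SD, n = 3) in Akk. Of the helicases known as sensors of nucleic acids, Ddx3x, Ddx41, Dhx9 and Dhx15 were not analysed here.

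The 8 Prpf factors, the 19 Rbm proteins and the 9 cleavage and polyadenylation factors had median log2 fold changes of -0.81, -0.79 and -0.76, again with 0 past the thresholds. Prpf8, the scaffold of the catalytic centre, was at 4.39, 0.94 and 0.76 FPKM across Ctrl 1 to 3 and 0.83, 0.50 and 0.53 FPKM across Akk 1 to 3. Only Akk 1 reached into its Ctrl range. Rbm5, a splicing regulator of apoptosis genes, was at 4.64, 1.04 and 0.65 FPKM across Ctrl 1 to 3 and 1.52, 0.54 and 0.66 FPKM across Akk 1 to 3, and its log2 fold change of -0.79 was -0.0016 without Ctrl 1. Rbm7, of the complex that targets nuclear RNA to the exosome, was at 1.48 ± 1.35 FPKM (SD, n = 3) in Ctrl and 0.667 ± 0.382 FPKM (SD, n = 3) in Akk, and Rbm42 was the most abundant Rbm gene at 2.37 FPKM. Cpsf3, the nuclease that cuts the pre-mRNA, was at 3.74, 0.78 and 0.54 FPKM across Ctrl 1 to 3 and 0.76, 0.33 and 0.35 FPKM across Akk 1 to 3. Cstf2t, a copy of the Cstf2 gene best known from the testis, was at 0.97, 0.22 and 0.13 FPKM across Ctrl 1 to 3 and 0.07, 0.09 and 0.08 FPKM across Akk 1 to 3. Cstf2t separated the groups without overlap, with a log2 fold change of -1.25 ± 0.76 (SE; limma, adjusted p = 0.487).

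Relative to the rest of the table, the members stood highest in Akk 1. They made up 1.10% of the summed FPKM of that library and between 0.617% and 0.728% of each other library. The lists of other splicing genes given below also had their largest share in Akk 1. A gene at the table median likewise took a larger share there than in Ctrl 3, Akk 2 and Akk 3, the libraries of similar sum. On the log2(FPKM + 0.1) scale, the table median was -1.32 in Akk 1, at a sum of 11427 FPKM. It was -1.64, -1.84 and -1.79 in Ctrl 3, Akk 2 and Akk 3, at sums of 10806, 10311 and 10731 FPKM. The median of the members minus that of the table was 0.66 in Akk 1, 0.36 in Akk 2 and 0.31 in Akk 3, against 0.37, 0.44 and 0.43 in the Ctrl libraries. Centred in this way, 46 members (41.4%) had their highest value of the 6 libraries in Akk 1, against 15.1% of the table. After centring without Ctrl 1, 61 members (55.0%) were higher, against 51.6% of the table. Without centring and leaving Ctrl 1 aside, the highest of the other 5 libraries was Akk 1 for 48 members (43.2%, against 25.8% of the table) and Ctrl 2 for 54 (48.6%, against 53.9%). Ctrl 3 alone was highest for 3 members (against 6.88%), Ddx39, Ddx51 and Dhx37, Akk 2 for Ddx11 and Rbm47 (2 members, against 2.57%) and Akk 3 for 0 (against 2.77%). Akk 1 was above Ctrl 3 for 91 members (82.0%, against 65.0% of the table) and above Ctrl 2 for 53 members (47.7%, against 30.8%). The relative level in Akk 1 was most raised for the SR proteins, by 0.50 over the mean of the 6 libraries, and for the hnRNP proteins, by 0.46. It was also highest there for the SR-related matrix, DEAD, Prpf and cleavage groups. SF3A and SF3B were instead highest in Ctrl 2, at 0.36 against 0.047 in Akk 1. So were the 3′ splice site factors, at 0.26 against 0.25. The DEAH and Rbm groups were highest in Ctrl 3, at 0.25 and 0.19 against 0.073 and 0.14 in Akk 1. The snRNP proteins were highest in Akk 3, at 0.095 against 0.059. The median of the 3 Celf and Mbnl genes was at -0.39 in Akk 1 and 0.74 in Ctrl 1 on this measure and was the value of Mbnl2 in every library. Their summed FPKM was instead the largest share of the table in Akk 1, 0.123% against 0.076% to 0.106% in the other libraries. The neutrophil markers were at their lowest in the same library, with 10 of 10 listed, summing to 144.7 FPKM in Akk 1, to 369.6 and 233.0 FPKM in the other Akk mice and to between 277.1 and 1416 FPKM in the Ctrl mice. The mean of these markers above the table median was 3.12 in Akk 1 and between 4.63 and 5.21 in the other libraries. The 2 listed B cell markers were at their highest relative level in Akk 1, 2.77 against 1.77 to 2.27. The 7 platelet markers were at their lowest relative level there, 6.41 against 6.65 to 7.63. The relative levels of the monocyte, T cell and NK cell markers in Akk 1 were 2.34, 1.80 and 1.30, each inside the range of the other 5 libraries, and no listed marker was at 0. The part of cell composition in the result was not tested.

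**Figure D4:**
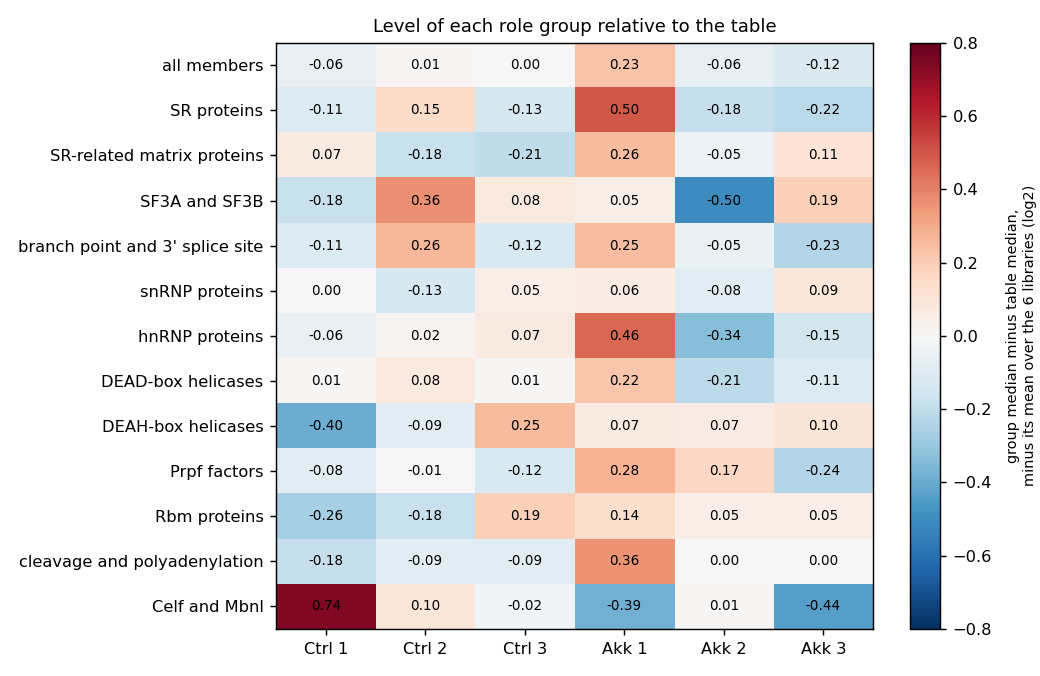
Level of each role group relative to the table in the 6 blood libraries. Each cell is the group median minus the table median on the log2 scale, minus its mean over the 6 libraries; the SR proteins (0.50) and hnRNP proteins (0.46) are highest in Akk 1, and the Celf and Mbnl group (0.74) in Ctrl 1.

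Splicing genes outside the symbol pattern lay in the same range. Of the lists fixed for this comparison, the table holds 20 of 28 genes of the Prp19 complex and of later steps, 16 of 30 other splicing regulators, 12 of 19 genes of the exon junction and mRNA export, 7 of 10 for poly(A) site processing, 7 of 10 of the SMN complex, 6 of 12 Lsm proteins and 2 of 7 SR protein kinases. In each list 0 genes passed the thresholds, and 0 had an unadjusted p under 0.05 from limma. Their median log2 fold changes ran from -0.91 for the Prp19 list to -0.71 for the SMN complex, around the table median of -0.87. Each list, like the members, made up its largest share of the summed FPKM in Akk 1. As given above, a gene at the table median also had a larger share there than in the libraries of similar sum. The share was 0.196% against at most 0.133% for the other splicing regulators, and 0.0336% against at most 0.0323% for the Lsm proteins. By the median minus that of the table, the Lsm proteins and the SMN complex were instead highest in Akk 3. The Prp19 list was highest in Akk 2 and the exon junction and mRNA export list in Ctrl 2. Only the SR protein kinases, the other splicing regulators and the poly(A) site list were highest in Akk 1 by this measure too. Abundant genes had lower log2 fold changes than scarce ones on the log2(FPKM + 0.1) scale. For the 39 members with a mean of at least 1 FPKM the median was -0.96 against -1.11 for the 2366 such genes of the table, and for the 72 members below 1 FPKM it was -0.79 against -0.78 for 5637 genes. The longest annotated transcript of a member had a median of 12 exons and 3814 bases, against 9 exons and 3590 bases in the table.

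Promoter sequences from RefSeq (GRCm38.p6) were matched by gene number for 94 members. The 250 bases before the most upstream start in that promoter set were searched on both strands. This start can lie inside the annotated bounds of the gene, so that a site may be within the gene. The core of the interferon-stimulated response element, a pair of GAAA runs with any 2 bases between them, was found in 4 member promoters (4.26%), those of Ddx60, Ddx49, Rbm28 and Rbm43, against 2.92% of those of the table and 3.05% of 27025 promoters. Ddx60, the lowest member by fold change, held it 2 times, as did Rbm43. Both Ddx60 sites are shown with the match in capitals, at chr8:61928024-61928053 and chr8:61928058-61928087 on the + strand.
Ddx60 far site: gtgatgaatgGAAACCGAAActtaaagctt
Ddx60 near site: gagcagaagaGAAACCGAAActatccttca
The near site begins 19 bases and the far site 53 bases before the start used here. The gene is annotated from 61928073, and the near site as shown spans that position. The low values of Ddx60 in 5 of the libraries and its high value in Ctrl 1 were given above, and the presence of the sites says nothing about their use.

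An ETS core, CCGGAAG, was held by 26 member promoters (27.7%), against 14.4% of the 6438 promoters of table genes and 7.07% of all 27025, while the median GC content was 58.6% for members and 60.0% for the table. The TATA box letters TATAAA were in 7.45% of member promoters, 6.55% of those of the table and 13.0% of all. Of the matches within 100 bases of the start, 5 are shown, from abundant members and from members whose groups did not overlap, read on the strand of the gene, with CCGGAAG in capitals. Hnrnpf and Sf3b2 stand for the abundant members, at chr6:117900279-117900308 (+ strand) and chr19:5295450-5295479 (- strand). Snrnp200, Rbm45 and Dhx37 stand for the others, at chr2:127208342-127208371 (+ strand), chr2:76369931-76369960 (+ strand) and chr5:125434094-125434123 (- strand). The Dhx37 site lies inside the annotated gene, whose upstream end is at 125434139. The Rbm45 stretch reaches the annotated gene start at 76369959, after its match.
Hnrnpf: ggggctgcacaCCGGAAGtccctgtgcttc
Sf3b2: ggattacgcaaCCGGAAGtttctggaagta
Snrnp200: tagcgggcgtcCCGGAAGcggaagcaagtc
Rbm45: gcagaatgttcCCGGAAGcccgcagacctc
Dhx37: gcatgcgcaacCCGGAAGtctcctagccag
Hnrnpf and Sf3b2 overlapped between the groups and the other 3 did not, but the 5 were picked from both kinds of member. Whether the motif goes with that division was not tested.

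In the hippocampus of the same mice, whose table has 284 genes, Rbm47 was the only member listed. It was at 1.81, 0.28 and 0.19 FPKM across Ctrl 1 to 3 and 0.12, 1.14 and 0.19 FPKM across Akk 1 to 3, with overlapping ranges. In blood Rbm47, an RNA-binding cofactor of RNA editing, was at 0.89, 0.03 and 0.10 FPKM across Ctrl 1 to 3 and 0.05, 0.12 and 0.06 FPKM across Akk 1 to 3, and its groups overlapped as well.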

How the data were processed

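RNA from blood and hippocampus of 3 Ctrl and 3 Akk mice was sequenced by the authors, and the 6 blood libraries were used for every test; the hippocampus gave the values of Rbm47 only. The paper states that cleaned reads were mapped with HISAT2 and Bowtie2 and quantified with RSEM, whereas the submitters' processing notes name TopHat2, Cufflinks and GRCm38. The authors deposited FPKM per gene, rounded to 2 decimals, for the genes they had called changed between the groups, so the adjustment and the spread rest on selected genes. Depth is unknown, and the 3 mice per group limit the precision.

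Log2(FPKM + 0.1) values were compared with limma 3.58.1 (R 4.3.3), with an intensity trend and no scaling between libraries, and p-values were adjusted over the 8003 genes. Role groups and lists were described by counts and medians without a test. The members and lists were chosen with earlier results of these data known. Genes were named by a rule: the most abundant member of each role group (and the second in groups of at least 10), the 6 with the smallest p, the 4 lowest and 4 highest centred log2 fold changes at a mean of at least 1 FPKM, up to 5 with a higher mean in Akk (there were none), and 6 helicases known in nucleic acid sensing. Members described by their values outside this rule were named after those values were seen. Among them were Hnrnpm, Snrnp200, Dhx8, Ddx19a, Ddx19b, Rbm47, Rbm45 and Dhx37. Ddx11, Ddx39, Ddx49, Ddx51, Rbm4, Rbm14, Dhx34 and Snrpb2 were too. Near-identical transcripts were searched in GENCODE M21 with blastn 2.17.0, and 9 of 110 members had one: Ddx5, Ddx18, Hnrnpf, Rbm4, Rbm12b2, Rbm42, Sf3b4, U2af1 and U2af1l4. Counts and medians came from pandas 2.3.3 under Python 3.11.15. Alternatives were other pseudocounts, a filter, centring, quantile normalization, no trend, the replicate number as a block and each library left out.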

Additional observations from a re-analysis of the deposited data

How the results depend on the processing

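With 3 mice per group, unknown depth and a table of selected genes, little could be resolved, and 0 members passed the thresholds under any of the 15 alternatives, the range on leaving out a library being 0 to 0 in both directions. Over all genes, 23 passed without Ctrl 3, 4 with a pseudocount of 0.01, 2 with centring without Ctrl 1 and 1 with centring. Without Ctrl 3, 8 members (7.21%) had an unadjusted p under 0.05 from limma, against 20.1% of the table. The smallest adjusted p of a member (limma) ran from 0.222 without Ctrl 3 to 0.999 with quantile normalization and with centring without Ctrl 1. The median log2 fold change of the members ran from -1.33 (without Ctrl 3) to -0.21 (without Ctrl 1) on leaving out a library, and turned to 0.089 with centring, 0.10 with quantile normalization and 0.042 with centring without Ctrl 1. The count of members with no overlap became 4 with centring (3.60%, against 4.44% of the table) and 9 with centring without Ctrl 1 (8.11%, against 9.10%), both tried after seeing the data. Leaving out a library can only keep or raise the count without centring. It then ran from 14 to 64, the 64 being without Akk 1 (57.7%, against 41.8% of the table). It was 56 without Ctrl 3 (50.5%, against 57.8%).

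Of the 28 genes named by the rule, all kept a negative log2 fold change under the other pseudocounts, without the trend, with the replicate block and without any library other than Ctrl 1, as did the 21 that passed the filter on the mean. Without Ctrl 1 the log2 fold change was 0.13 for Ddx6, 0.17 for Dhx40, 0.058 for Snrnp70 and 0.36 for Srrm2, whereas the lowest values on leaving out another library were -1.36, -1.02, -1.43 and -0.97 in that order. With centring it was 0.36 for Ddx25, 0.10 for Ddx5, 0.061 for Ddx6, 0.22 for Dhx36, 0.32 for Dhx40, 0.044 for Hnrnpk, 0.13 for Rbm5, 0.17 for Rbm7, 0.22 for Snrnp70, 0.088 for Snrpb, 0.48 for Srrm2, 0.025 for Srsf4 and 0.13 for U2af2. With quantile normalization it was 0.41 for Ddx5, 0.28 for Ddx6, 0.12 for Dhx36, 0.0096 for Dhx38, 0.44 for Dhx40, 0.21 for Hnrnpf, 0.32 for Hnrnpk, 0.14 for Mbnl1, 0.15 for Rbm42, 0.33 for Rbm5, 0.33 for Rbm7, 0.44 for Snrnp70, 0.35 for Snrpb, 0.71 for Srrm2, 0.17 for Srsf4 and 0.34 for U2af2. With centring without Ctrl 1 it was 0.23 for Ddx5, 0.38 for Ddx6, 0.13 for Dhx36, 0.089 for Dhx38, 0.42 for Dhx40, 0.043 for Hnrnpf, 0.057 for Hnrnpk, 0.25 for Rbm5, 0.19 for Rbm7, 0.31 for Snrnp70, 0.16 for Snrpb, 0.61 for Srrm2, 0.024 for Srsf4 and 0.13 for U2af2. Both scalings set the centre of the table near 0 by construction, and other causes of these turns were not tested.

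The replicate numbers mark different mice in each group, and the deviations of same-numbered libraries correlated at 0.036, -0.011 and -0.096 across genes. With the replicate block the median log2 fold change of the members was -0.83, the smallest adjusted p (limma) was 0.401, 4 members (3.60%) had an unadjusted p under 0.05, against 7.38% of the table, and 0 members and 1 gene of the table passed the thresholds.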
